A study of Mus musculus with 4 samples.

Results

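The subunit genes of the GABA-A receptor described here were Gabra2, Gabra3, Gabra4, Gabra5, Gabrb1, Gabrb2 and Gabrd. They were taken by gene symbol and are 7 of the 31053 genes in the count tables, and other subunit genes of the receptor were not analysed here. The samples were primary cortical neurons of wild-type mice. The study's methods give late embryonic C57BL/6J cortex as the source of its neuron cultures and floxuridine in the medium to limit dividing cells. RNA bound to the ribosomal protein RPS2, part of the small subunit, was recovered by enhanced crosslinking and immunoprecipitation (eCLIP) in 2 libraries, called RPS2 IP below, and was set beside 2 libraries of total RNA taken from the samples ahead of the pulldown. Per the labels, RPS2 IP libraries had rRNA depletion and total RNA libraries had no treatment, whereas the methods place a depletion step after library preparation and do not name the libraries it was applied to. If one group alone was depleted, that step cannot be told apart from the IP. The labels do not say that replicates 1 and 2 were separate cultures, so p-values measure only the spread between these samples. The study divided IP by total RNA counts to obtain a measure of translational efficiency per gene, and the same ratio is followed here for the subunits.

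GABA-A receptors are chloride channels opened by GABA, the main inhibitory transmitter of the cortex, and are built from subunits of several classes around a central pore. The alpha subunits form the GABA site together with the beta subunits, and decide much of where the receptor sits and which drugs it answers to. Receptors with alpha-2 or alpha-3 are mostly synaptic, those with alpha-5 are largely extrasynaptic, and alpha-4 and delta join in extrasynaptic receptors that carry tonic inhibition. The beta subunits are needed for assembly and for traffic to the surface.

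The alpha subunits differ at one codon that decides the response to classical benzodiazepines. It is shown because, among the alpha genes described here, it separates Gabra4 from the rest. The coding sequence around it, from GENCODE M21 transcripts, has this codon in capitals, which reads histidine in Gabra2, Gabra3 and Gabra5 and arginine in Gabra4.
Gabra2: gataccttctttCACaatgggaaaaag
Gabra3: gataccttcttcCACaatggtaaaaaa
Gabra4: gatactttcttcAGGaatggaaagaaa
Gabra5: gacacgttcttcCACaacggcaagaag

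The readout is the recovery of mRNA with a ribosomal protein, so the bases around each start codon are shown as well, with the ATG in capitals.
Gabra2: aacaagaagATGaagacaaaattg
Gabra3: tctaagaagATGataatcacacaa
Gabra4: gttgcgaagATGgtttctgtccag
Gabra5: ttactgggaATGgacaatggaatg
Gabrb1: gagttaggaATGtggacagtacaa
Gabrb2: cctaaagggATGtggagagtccgg
Gabrd: cgcaaggccATGgacgttctgggc
A purine lay 3 bases before the ATG in all 7 genes, against 84.0% of 20426 coding genes of the annotation. A G at position 4, counted from the A of the ATG, was present in Gabra4, Gabra5 and Gabrd, which is 3 of the 7, against 49.1% of those coding genes. These letters describe the annotated transcripts and were not compared with the IP.

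On mm10, 3 of the genes lie on chromosome 5. Gabra2 (ENSMUSG00000000560) spans 70957597 to 71095849 on the minus strand. Gabra4 (ENSMUSG00000029211) spans 71569749 to 71658308 on the minus strand, and Gabrb1 (ENSMUSG00000029212) spans 71658113 to 72149037 on the plus strand. Gabra4 and Gabrb1 are head to head and overlap by 196 bases, of which 46 are exonic in both on opposite strands. The counts were made by strand, which separates the reads of these genes. RefSeq starts Gabrb1 further upstream, at 71657921, and the stretch before that start holds the complement of the Gabra4 start codon (capitals) 111 bases away. It is printed because it shows how closely these genes face each other, from GRCm38.p6, plus strand, chr5:71657747-71657824.
Gabrb1 upstream: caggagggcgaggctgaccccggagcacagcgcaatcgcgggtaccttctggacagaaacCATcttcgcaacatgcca

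The other members lie apart. Gabra3 (ENSMUSG00000031343) is on chromosome X from 72432681 to 72656848, minus strand. Gabra5 (ENSMUSG00000055078) is on chromosome 7 from 57407672 to 57510059, minus strand, and shares 266 exonic bases with Gm9962 on the opposite strand. Gabrb2 (ENSMUSG00000007653) is on chromosome 11 from 42419757 to 42629028, plus strand, and Gabrd (ENSMUSG00000029054) on chromosome 4 from 155384980 to 155398112, minus strand. Exonic length runs from 2875 bases in Gabrd to 13838 bases in Gabrb1, and 12228 bases of the longest Gabrb1 transcript lie past its stop codon. No member has a same-strand exonic overlap with another gene or an annotated small RNA in its exons.

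Library totals were 16460545 and 9941486 counts in RPS2 IP replicates 1 and 2, and 5281196 and 4899718 in total RNA. The lincRNA Gm42418 alone took 42.6% and 27.9% of the counts in RPS2 IP replicates 1 and 2, and 39.8% and 15.3% in total RNA. The 7 subunits together held 5275 and 3431 counts in RPS2 IP and 1343 and 1702 in total RNA, so total RNA sets the precision of most ratios. Of the marker lists, neuronal genes summed to 3563 to 4264 CPM (counts scaled to a common effective library size by TMM, here and below) and genes of GABAergic neurons to 1089 to 1235 CPM. All 6 genes of either list were counted in every library, as were all 5 excitatory markers, which summed to 2484 to 2954 CPM. Genes of the oligodendrocyte lineage summed to 57.2 to 67.4 CPM, and endothelial and fibroblast genes to 3.59 to 23.2 CPM with Cldn5 at 0 in all 4 libraries.

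Astrocyte and microglia markers separated the replicates. The 6 astrocyte genes summed to 1841 and 1523 CPM in RPS2 IP and total RNA of replicate 1 and to 506 and 485 CPM in those of replicate 2, and all 6 were higher in replicate 1 of both groups. The 6 microglia genes summed to 60.4 and 60.1 CPM in replicate 1, against 6.83 and 4.93 CPM in replicate 2, where 3 and 4 of them were at 0. In these markers the libraries of one number lay close together while the replicates did not. In bulk RNA, fewer cells of a type and less RNA per cell cannot be told apart.

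Gabrd mRNA, which codes for the delta subunit, was the most abundant of the 7 per length. It stood at 20.6 and 19.4 CPM per kilobase of exons in total RNA replicates 1 and 2, with a mean of 20.0 ± 0.863 (SD, n = 2), at or above 87.2% of the 12336 genes tested. Gabrb2, coding for beta-2, followed with 12.7 and 12.4, a mean of 12.6 ± 0.239. Gabra5 was the highest alpha gene, at 10.7 and 8.57 with a mean of 9.64 ± 1.51. Each of these stood above the next in both total RNA libraries without overlap of their ranges, by 1.59 times for Gabrd over Gabrb2, 1.30 times for Gabrb2 over Gabra5 and 1.90 times for Gabra5 over Gabra3.

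The lower members were not all separated. Gabra3 stood at 4.37 and 5.78 CPM per kilobase (mean 5.08 ± 0.998), Gabrb1 at 4.91 and 3.59 (mean 4.25 ± 0.934), and Gabra4 at 4.25 and 3.59 (mean 3.92 ± 0.461). The ranges of Gabra3 and Gabrb1 overlapped, as did those of Gabrb1 and Gabra4, so these neighbours did not differ beyond the spread of the libraries. Gabra3 was above Gabra4 in both libraries without overlap, but narrowly in replicate 1, where they had 77 and 116 counts. The order of their means depended on the length used, and it reversed with raw counts and with the longest coding transcript. Gabra2 was lowest, at 2.10 and 3.33 (mean 2.72 ± 0.874), below both values of Gabra4 and at or above 42.1% of the genes tested. The median over all genes tested was 3.67 CPM per kilobase.

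**Figure D1:**
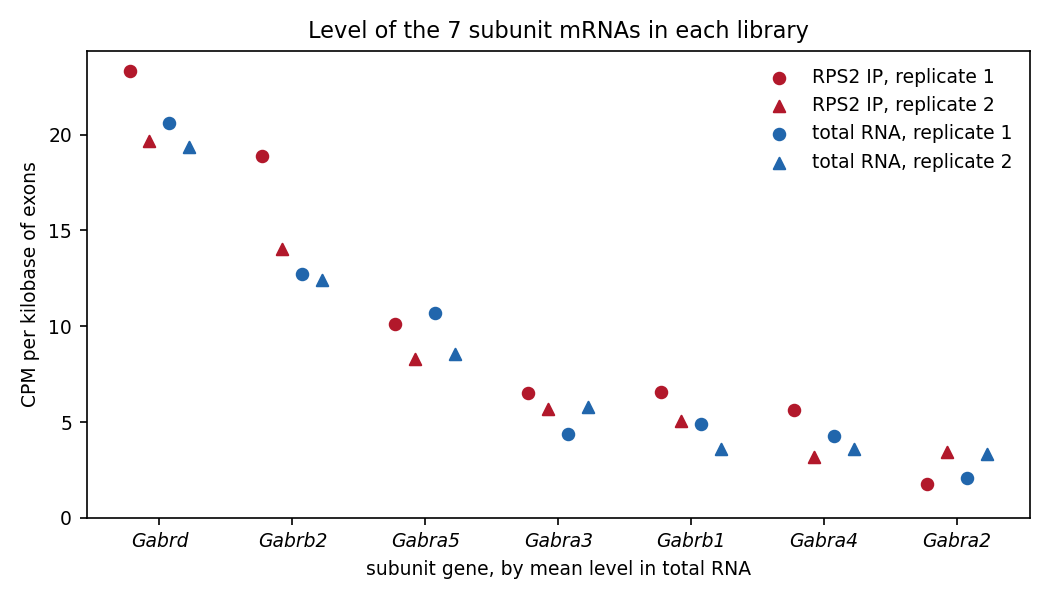
Level of each subunit mRNA in CPM per kilobase of exons (vertical axis) in the 4 libraries, ordered by the mean in total RNA, with 1 point per library. Gabrd lies highest in every library, from 19.4 to 23.3, and Gabra2 is lowest or near lowest, from 1.77 to 3.43.

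As shares of the 7 subunits per kilobase, Gabrd made up 34.5% of total RNA replicate 1 (95% interval 31.4 to 37.6, from the delta method and covering counting error only) and 34.2% of replicate 2 (31.5 to 36.9). Gabrb2 made up 21.4% (19.3 to 23.5) and 21.9% (20.0 to 23.8). Gabra5 made up 17.9% (15.3 to 20.5) and 15.1% (13.0 to 17.3). Gabrd and Gabrb2 thus each held more than any alpha gene in both total RNA libraries.

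The remaining 4 genes had shares of 3.52 to 10.2%. Gabra3 held 7.32% and 10.2%, Gabrb1 8.22% and 6.33%, Gabra4 7.12% and 6.34%, and Gabra2 3.52% (2.70 to 4.33) and 5.89% (4.96 to 6.81). The intervals of Gabra2 did not overlap between the replicates. By class, the 4 alpha genes summed to 35.9% and 37.6% and the beta genes to 29.6% and 28.2%. Shares depend on the length each gene is divided by: without division by length, Gabrb2 led with a mean of 27.7%, followed by Gabrb1 at 20.2% and Gabrd at 19.9%. The class order changed as well, with means of 32.3% for alpha and 47.9% for beta without division by length. With the length of the longest coding transcript they were 32.0% and 30.5%. The ends of the transcripts made in these cells were not measured.

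In RPS2 IP the same genes led in the same order. Gabrd made up 32.0% (30.4 to 33.6) and 33.1% (31.2 to 35.1), Gabrb2 26.0% (24.8 to 27.1) and 23.7% (22.3 to 25.1), and Gabra5 13.9% in both (12.7 to 15.1 and 12.4 to 15.4). The beta genes summed to 35.0% and 32.2% in RPS2 IP, above both total RNA libraries, and the difference was 5.38 percentage points in the replicate 1 pair (2.70 to 8.06) and 3.96 in the replicate 2 pair (1.40 to 6.51). The alpha genes summed to 33.0% and 34.7%, with differences of -2.86 in both pairs and intervals that included 0 (-6.13 to 0.40 and -6.01 to 0.28). An exact two-sided permutation test of 2 libraries against 2 cannot go below p = 0.333, the value it gave for the beta sum and for the alpha sum, so shares are compared by their values alone.

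**Figure D2:**
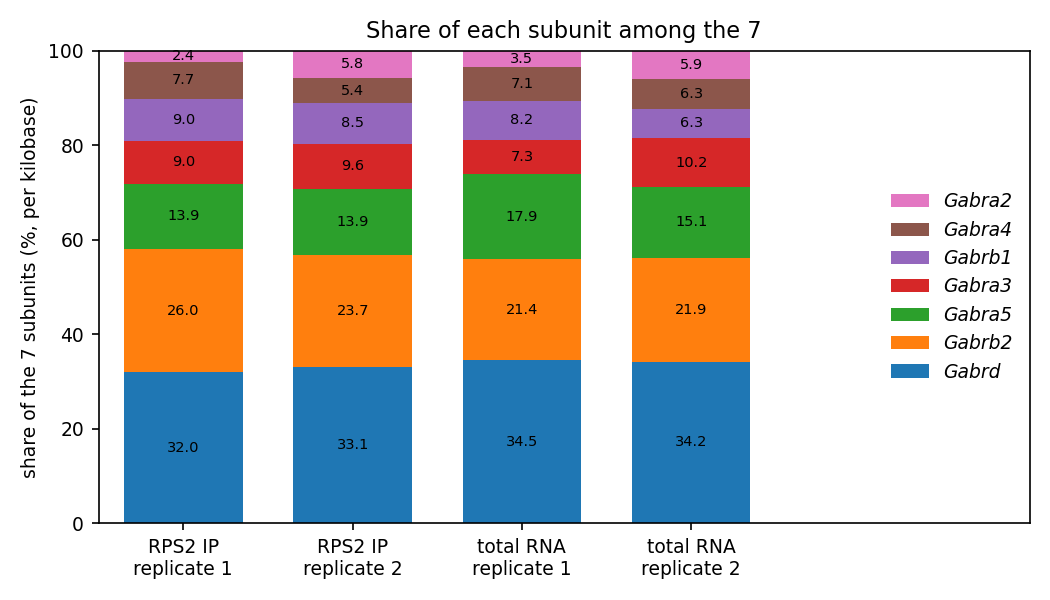
Share of each subunit among the 7, in percent of their summed counts per kilobase, for each of the 4 libraries as a stacked bar, with the share printed in each segment. Gabrb2 takes 26.0% and 23.7% of the RPS2 IP bars and 21.4% and 21.9% of the total RNA bars, while Gabrd takes 32.0 to 34.5% of all 4.

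Ratios between members were also compared within each library. Gabrb2 over Gabrb1 per kilobase was 2.89 and 2.79 in RPS2 IP and 2.60 and 3.46 in total RNA. Gabrd over Gabra4, subunits that can share a receptor, was 4.16 and 6.19 in RPS2 IP and 4.85 and 5.39 in total RNA. Both ratios overlapped between the groups. The sum of the beta genes over that of the alpha genes did not, at 1.06 and 0.93 in RPS2 IP and 0.82 and 0.75 in total RNA. Gabra5 over Gabra2 followed the replicate instead, at 5.73 in RPS2 IP and 5.10 in total RNA of replicate 1 and 2.41 and 2.57 in replicate 2.

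The question for the IP was whether any subunit mRNA was recovered with RPS2 beyond its level in total RNA. Gabrb1 and Gabrb2 were the members with both RPS2 IP libraries above both total RNA libraries, 2 of 7, where 16.9% of all genes tested had that arrangement. With libraries of a group as unpaired replicates, edgeR's quasi-likelihood test with Benjamini-Hochberg adjustment over all genes called 0 of the 7, and 0 had an unadjusted p under 0.05. DESeq2 without a block also called 0 of the 7. The same edgeR fit called 0 of 12336 genes (0.0%), with 349 at an unadjusted p under 0.05, and its biological coefficient of variation was 29.7%. All 7 members passed the filter on low counts.

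Because each sample gave both an IP and a total RNA library according to the methods, a second fit used the replicate number as a block, which compared IP with total RNA within each pair. It called 818 genes higher in IP (6.63%) and 931 lower (7.55%). Of the members it called Gabrb1 and Gabrb2 higher and none of the 7 lower. With only 1 residual degree of freedom for each gene, this fit assigned all genes the dispersion trend, on which its adjusted p-values depend. Median log2 fold change of the 7 was 0.12 with the block, beside 0.01 over all genes tested.

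Gabrb1, coding for beta-1, had 90.6 and 69.8 CPM in RPS2 IP replicates 1 and 2 and 67.9 and 49.6 CPM in total RNA. Every RPS2 IP value was above every total RNA value, the closest being RPS2 IP of replicate 2 and total RNA of replicate 1. Within the pairs the log2 ratio of IP to total RNA was 0.41 and 0.49. The fitted log2 fold change was 0.45 ± 0.26 (SE) without the block (edgeR adjusted p = 1.00, unadjusted p = 0.143) and 0.45 ± 0.11 with the replicate block (edgeR adjusted p = 0.00157), a fold of 1.37. Without the block the value ran from 0.24 without total RNA replicate 2 (0.25 without IP replicate 1) to 0.69 without total RNA replicate 1. With the block, Gabrb1 was called in 6 of 8 settings and missed the threshold in DESeq2 (adjusted p = 0.0916) and with libraries scaled by total alone (edgeR adjusted p = 0.0710).

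Gabrb2 had 120.3 and 89.4 CPM in RPS2 IP and 81.1 and 78.9 CPM in total RNA. Both RPS2 IP values were again above both of total RNA, more so in replicate 1. The log2 ratio was 0.57 in the replicate 1 pair and 0.18 in the replicate 2 pair. The fitted log2 fold change was 0.39 ± 0.23 (SE) without the block (edgeR adjusted p = 1.00, unadjusted p = 0.148) and 0.37 ± 0.11 with the replicate block (edgeR adjusted p = 0.00833), a fold of 1.29. Without the block the value was 0.16 when IP replicate 1 was left out and 0.58 when IP replicate 2 was. It was called in 5 of 8 settings with the block. Beside DESeq2 (adjusted p = 0.171) and scaling by total alone (edgeR adjusted p = 0.183), it missed the threshold with an offset for GC content and length, at a log2 fold change of 0.24 (edgeR adjusted p = 0.179).

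Gabrd had 67.0 and 56.5 CPM in RPS2 IP and 59.2 and 55.7 CPM in total RNA. The groups overlapped, and the log2 ratio was 0.18 and 0.02 in the pairs. With the replicate block its log2 fold change was 0.10 (95% interval -0.13 to 0.33, edgeR adjusted p = 0.653). The most abundant subunit mRNA was therefore recovered with RPS2 at close to its level in total RNA, within that interval.

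None of the alpha genes was called with or without the block. Gabra3 had 25.7 and 22.4 CPM in RPS2 IP and 17.1 and 22.7 CPM in total RNA, with log2 ratios of 0.58 and -0.02 in the pairs. Its blocked log2 fold change was 0.26 (-0.06 to 0.58, edgeR adjusted p = 0.322). The pairs thus differed in whether Gabra3 was above total RNA at all.

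Gabra4 had 34.1 and 19.3 CPM in RPS2 IP and 25.8 and 21.9 CPM in total RNA. Its log2 ratios were 0.40 and -0.18, of opposite sign, and the blocked log2 fold change was 0.12 (-0.18 to 0.43, edgeR adjusted p = 0.677). Gabrb1, which faces Gabra4 on the chromosome, had ratios above 0 in both pairs, and the difference between these genes was not tested.

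Gabra5 had 30.1 and 24.6 CPM in RPS2 IP and 31.8 and 25.5 CPM in total RNA, with log2 ratios of -0.08 and -0.05. The blocked log2 fold change was -0.06 (-0.36 to 0.23, edgeR adjusted p = 0.837). Each library of RPS2 IP was slightly below the total RNA library of its number. Gabra2 had 13.5 and 26.2 CPM in RPS2 IP and 16.03 and 25.5 CPM in total RNA, with log2 ratios of -0.24 and 0.04 and a blocked log2 fold change of -0.08 (-0.41 to 0.26, edgeR adjusted p = 0.828). These intervals leave room for changes of the size seen in Gabrb1 for Gabra3, and for changes nearly that large in the lower direction for Gabra2.

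**Figure D3:**
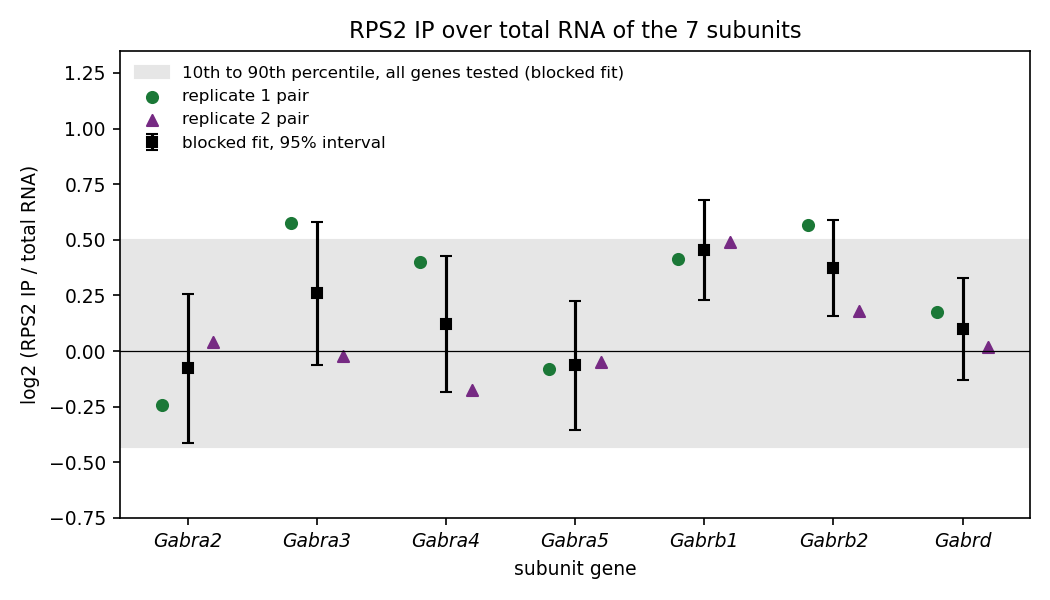
The log2 ratio of RPS2 IP to total RNA (vertical axis) for each subunit, with points for the replicate 1 and replicate 2 pairs and squares with 95% intervals for the fit with the replicate block. The grey band spans the 10th to 90th percentile of all genes tested in that fit, -0.43 to 0.50. The intervals of Gabrb1 (0.23 to 0.68) and Gabrb2 (0.16 to 0.59) lie above 0 and the others include it.

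All 7 blocked estimates lay within the central 80% of genes. The smallest counts behind them were those of Gabra2 in total RNA, 72 and 155, and of Gabra3, 77 and 138, against 305 and 302 for Gabrb1. In the replicate 1 pair 5 of the 7 log2 ratios were above 0, with a median of 0.40 beside 0.01 over all genes tested. In the replicate 2 pair 4 of 7 were above 0, with a median of 0.02 beside 0.01. Over the 12336 genes tested, 6325 were above 0 in the replicate 1 pair and 6262 in the replicate 2 pair. Single members went either way, since Gabra2, Gabra5 and Gabrb1 had the lower log2 ratio in the replicate 1 pair and the other 4 had the higher, and the difference between the pairs was not tested. The replicate 1 pair was the one with more astrocyte and microglia marker RNA. The part of these markers in the subunit ratios was not tested.

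Between the replicates, Gabra2 moved apart from the other subunits. It was higher in replicate 2 than in replicate 1 by 0.66 on the log2 scale in total RNA and by 0.94 in RPS2 IP. The middle 80% of all genes tested ran from -0.96 to 0.72 in total RNA and from -0.86 to 0.63 in RPS2 IP, so that Gabra2 was outside that range in RPS2 IP and inside it in total RNA. Gabra4, its nearest neighbour among the members on chromosome 5, was lower in replicate 2 in both, with -0.24 and -0.81, as was Gabrb1 with -0.45 and -0.37.

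Gabra5, Gabrb2 and Gabrd were lower in replicate 2 in both groups as well, with values from -0.04 to -0.43. Gabra3 differed in sign, with 0.40 in total RNA and -0.20 in RPS2 IP. Of the 7 genes, 5 were lower in replicate 2 of total RNA and 6 were lower in replicate 2 of RPS2 IP. Of the 12336 genes tested, 6275 and 6189 were. IP and total RNA of one number share their samples, so these are not independent observations. There are no replicates of a replicate, and no test was made. The astrocyte gene Gfap, for comparison, had 725 and 678 CPM in RPS2 IP and total RNA of replicate 1 and 121 and 114 CPM in replicate 2, and its part in the subunit differences was not tested.

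**Figure D4:**
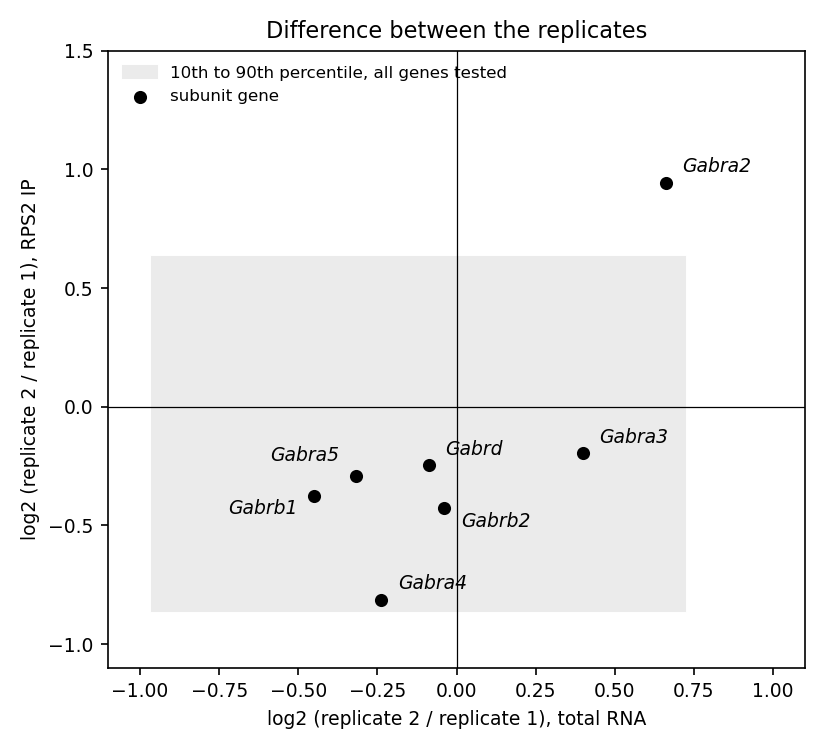
The log2 ratio of replicate 2 to replicate 1 in total RNA (horizontal axis) and in RPS2 IP (vertical axis), 1 point per subunit, with the 10th to 90th percentile of all genes tested as a grey box. Gabra2 lies at upper right at 0.66 and 0.94, and Gabra4 lies lowest at -0.24 and -0.81.

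The sum of the 7 subunits was 381 and 308 CPM in RPS2 IP and 299 and 280 CPM in total RNA, a log2 ratio of 0.35 in the replicate 1 pair and 0.14 in the replicate 2 pair. Both RPS2 IP libraries were above both total RNA libraries, and RPS2 IP of replicate 1 stood apart from the other three. Among 4998 genes that reached 100 counts in each of the libraries, the 5 whose centred log2 CPM lay closest to this sum over the 4 libraries were H2-D1 (distance 0.0364), Sdf2 (0.0398), Sestd1 (0.0413), Ric3 (0.0460) and Syt11 (0.0529). The distance is Euclidean on the log2 scale over 4 libraries, 2 of each group, and 4 points fix a pattern only loosely.

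Of 42 other genes of GABA signalling, in 5 lists by role, 41 were tested and Slc6a13 was too low, with 1 count in all. Without the block edgeR called 0 of the 41 and DESeq2 also called 0. With the replicate block 4 were called higher in RPS2 IP and 4 lower, and the median log2 fold change was -0.03 beside 0.01 over all genes tested. The shares called in each direction can be read against 6.63% and 7.55% of all genes.

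Of the 6 tested genes for synthesis, packaging, uptake and breakdown of GABA, 1 was called higher and none lower. Slc6a11, a GABA transporter known mainly from astrocytes, had 147 and 74.3 CPM in RPS2 IP and 99.98 and 56.1 CPM in total RNA, a blocked log2 fold change of 0.49 ± 0.11 (SE, edgeR adjusted p = 0.000296). Its level was higher in replicate 1 of both groups, as were the astrocyte markers, and the IP was above total RNA within each pair. The synthetic enzymes Gad1 and Gad2 had blocked values of 0.09 (edgeR adjusted p = 0.597) and 0.19 (0.221), and the lowest of this list was Aldh5a1, an enzyme of GABA breakdown, at -0.03 (0.923).

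For the metabotropic GABA-B receptor, 1 of 5 genes was called lower and none higher. Gabbr2, the subunit that couples to the G protein, had 461 and 280 CPM in RPS2 IP and 623 and 394 CPM in total RNA, a blocked log2 fold change of -0.46 ± 0.10 (SE, edgeR adjusted p = 0.000105). Its partner Gabbr1, which binds GABA, was highest of the list at -0.04 (edgeR adjusted p = 0.859). All 5 blocked values of this list were below 0, as were 6011 of the 12336 genes tested, and the list median was -0.28. With an offset for GC content and length 4 of 5 were below 0, Gabbr1 was at 0.12 and the median was -0.36. The call of Gabbr2 was lost with the GC and length offset, at -0.27 (edgeR adjusted p = 0.0743), while Kctd16 was called lower with it.

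Of 8 genes of the inhibitory postsynaptic scaffold, 1 was called lower and none higher. Iqsec3, an exchange factor that binds gephyrin, had 155 and 212 CPM in RPS2 IP and 211 and 287 CPM in total RNA, a blocked value of -0.44 ± 0.10 (edgeR adjusted p = 0.000244), lost with the GC and length offset at -0.11 (adjusted p = 0.604). Slitrk3, a synaptic adhesion protein, was highest at 0.36 without passing (edgeR adjusted p = 0.0517). Gphn, gephyrin itself, stood at -0.003 (edgeR adjusted p = 0.993).

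Of 16 genes for traffic of GABA-A receptors, 3 were called higher and 1 lower. Gabarapl1, of the family of proteins that bind GABA-A receptors and autophagosome membranes, had 207 and 210 CPM in RPS2 IP and 118 and 133 CPM in total RNA, with no overlap, and a blocked log2 fold change of 0.73 ± 0.10 (SE, edgeR adjusted p = 3.11e-10). It was called in 8 of 8 settings with the block. Its relative Gabarap had 43.5 and 44.5 CPM against 31.8 and 34.4, a blocked value of 0.41 (edgeR adjusted p = 0.0200), and was called in 4 of 8. Nsf, the ATPase that takes SNARE complexes apart and binds receptor traffic proteins, stood at 0.33 (edgeR adjusted p = 0.00961, 6 of 8), and the transport adaptor Trak1 at -0.36 (0.00475), which became -0.03 with the GC and length offset (0.929).

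Of 6 genes of chloride transport, which sets the driving force for these channels, 1 was called lower. Clcn2, a chloride channel, had 33.5 and 17.7 CPM in RPS2 IP and 46.8 and 26.3 CPM in total RNA, a blocked log2 fold change of -0.52 ± 0.14 (SE, edgeR adjusted p = 0.00464), which was -0.27 with the GC and length offset (adjusted p = 0.279). The chloride exporter Slc12a5 stood at -0.01 (edgeR adjusted p = 0.959) and the importer Slc12a2 at -0.42 (0.0597). Clcn3 was highest at 0.19 (0.263).

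**Figure D5:**
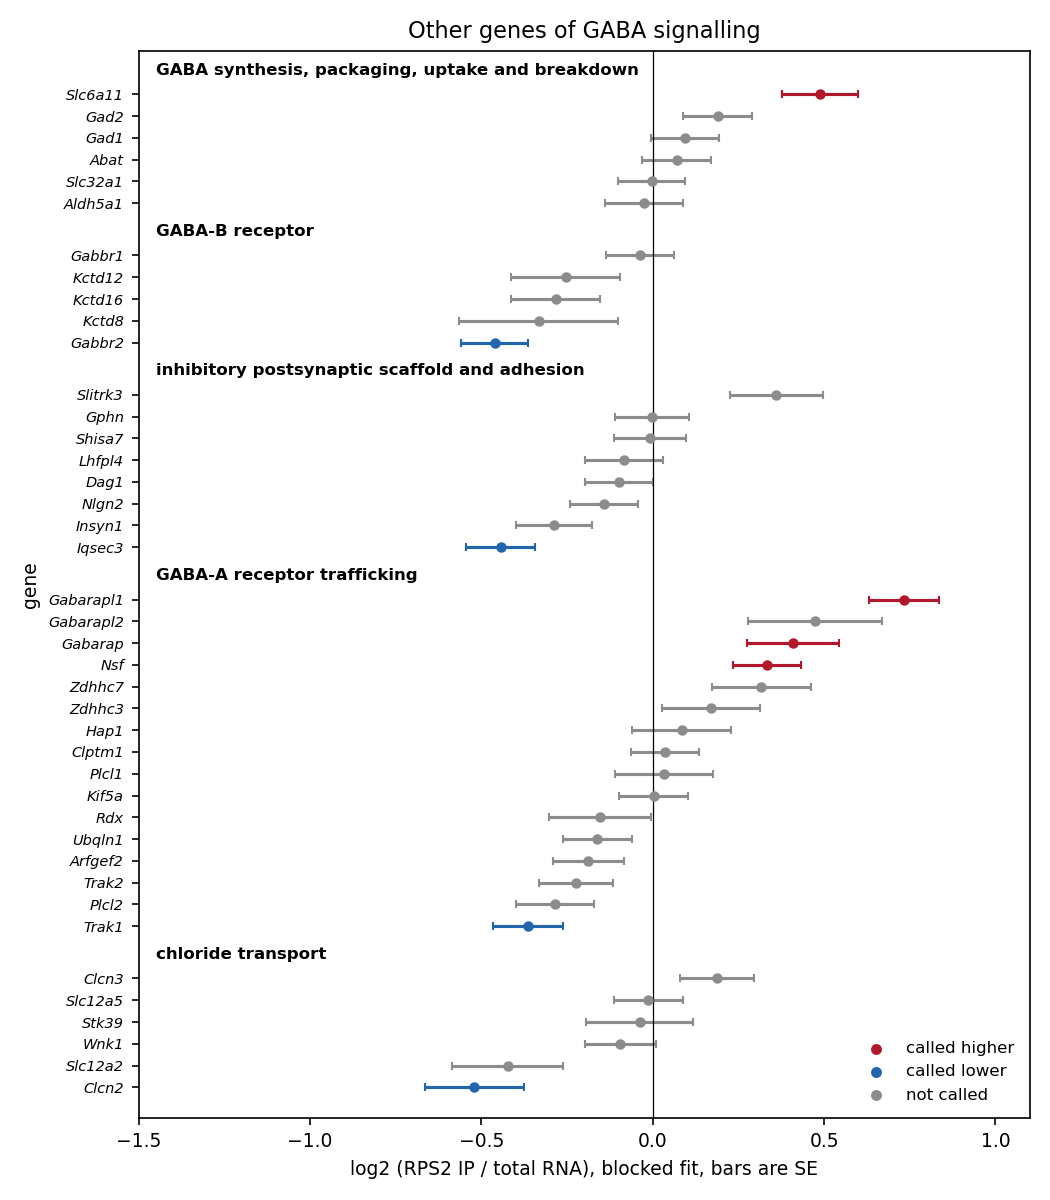
Blocked log2 fold change of RPS2 IP over total RNA (horizontal axis, bars are SE) of the 41 tested genes of GABA signalling, grouped by role, with genes called higher in red and lower in blue. Gabarapl1 lies farthest to the right at 0.73 and Clcn2 farthest to the left at -0.52, and 33 of the 41 were not called.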

How the data were processed

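Per the file headers, gene counts were made by the authors with featureCounts 1.5.3, by strand and against an mm10 annotation, and the deposited values are raw counts with no normalisation. Per the methods, trimmed reads were aligned with STAR. Reads at several loci or in several genes were dropped, so genes with near-identical copies are undercounted. No duplicate removal was named. The intervals of the shares cover counting error only and take each count as independent, so they are too narrow if duplicates remain. Those of the log2 fold changes come from the edgeR fit and its dispersion. Library totals ran from 4899718 to 16460545 counts.

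Identifiers were matched to GENCODE M21, which gave symbols to 30934 of 31053 genes, and start sites were read from RefSeq tables. Genes were kept by filterByExpr, which left 12336, and were tested with edgeR 4.0.16 in R 4.3.3 (TMM, quasi-likelihood, two-sided, Benjamini-Hochberg, threshold 0.05). Ratios within a pair are differences of log2 CPM with a prior count of 2. Levels were divided by the exonic length in the files. The replicate number was read as the shared sample, since total RNA was taken from the samples used for IP. Deviations from group means of same-numbered libraries had a Pearson correlation of 0.733 across genes. The coefficient of variation was 7.93% in the blocked fit.

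Members, lists and tests were chosen with earlier results of these data known. The genes named were the 7 members, genes of the lists called with the block, the highest and lowest of each list, and the 5 nearest genes by likeness. Gm42418, the genes called with the GC and length offset alone, Gad1, Gad2, Slc6a13, Gphn, Slc12a2, Slc12a5 and the marker genes Gfap and Cldn5 were named after their values were seen. Alternatives used DESeq2 1.42.0 and limma 3.58.1. Both fits were run on simulated data, drawn with replicate differences shared by IP and total RNA and with the dispersion of the blocked fit. At a simulated log2 fold change of 1 in 200 genes, the fit without the block recovered 0 and the blocked fit 167. The data were made under the blocked fit's own assumptions, so its recovery cannot show that they hold for the real libraries. Likewise, the 0 of the fit without the block followed from the shared replicate differences put into the simulated data. It cannot show why that fit made no calls on the real libraries. An absence of calls there is not evidence that Gabrb1 and Gabrb2 were unchanged. Values of 2 genes of the lists are not reported here, and the counts leave them out.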

Additional observations from a re-analysis of the deposited data

How the results depend on the processing

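Outside of leaving out a library, the sign of all 7 log2 fold changes held in every setting run. Some values were too small to give a direction, such as 0.00041 for Gabrd with library size alone and no block. Gabra4 was at 0.0057 with the block and the GC and length offset. With the replicate block 2 of the 7 were called, as they were without the low-count filter, with limma-voom, with counts thinned to the smallest library and without Gm42418, each with the block. With the block and the GC and length offset 1 was called, and with DESeq2 or library size alone 0. The blocked DESeq2 fit gave no adjusted p for Gabra2, Gabra3 and Gabra4, so these genes were not assessed there. Log2 fold changes of Gabrb1 ran from 0.37 to 0.48 and those of Gabrb2 from 0.24 to 0.40 over the settings with the block. The block moved the pathway calls from 0 to 8, with 7 under library size alone, 8 with no low-count filter, 5 with DESeq2, 8 with limma-voom and 7 with the GC and length offset. Over all genes tested, edgeR called 0.0% without the block, and 6.63% higher and 7.55% lower with it. That share was not worked out for the other settings. Their counts of members and list genes thus show only how calls moved. Of the 8 called with the block and the 7 called with the block and offset, 3 were shared (Gabarapl1, Slc6a11 and Nsf), and 0 of the 4 lower calls were among them. The other 4 called with the offset were Slc12a2, Zdhhc7, Plcl2 and Kctd16. The cause of these moves was not tested.

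Without the block, leaving out a library turned the sign of 4 members that were not called. It moved Gabrb1 over 0.24 to 0.69 and Gabrb2 over 0.16 to 0.58, none of these called. Gabra2 ran from -0.63 to 0.33 (0.31 without total RNA replicate 2), Gabra4 from -0.30 to 0.51, Gabra5 from -0.22 to 0.10 (0.07 without IP replicate 2) and Gabrd from -0.027 to 0.22. Where 1 library is left in a group, its spread is assumed to be that of the other group.

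Composition depends on length. With raw counts the mean shares in total RNA became 7.23% for Gabra2, 6.92% for Gabra3, 8.23% for Gabra4 and 9.88% for Gabra5. They became 20.2% for Gabrb1, 27.7% for Gabrb2 and 19.9% for Gabrd, and Gabra3 was then lowest. With the longest coding transcript they were 6.84% for Gabra3, 7.27% for Gabra4, 13.4% for Gabra5 and 5.35% for Gabrb1. Gabrb2 was then at 25.1% and Gabrd at 37.5%, and Gabrd led as it did with exonic length. The 72 to 480 counts of a member in a total RNA library limit what these ratios can resolve.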
